A study of Mus musculus with 202 samples.

Results

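The genes of the cytosolic ribosome were followed in single cells from a mouse line of pancreatic ductal adenocarcinoma. The cells had been sorted on surface E-cadherin (Cdh1), which joins epithelial cells to each other. Rows of the expression table were taken as members by their symbol, either Rpl or Rps followed by a number and at most one letter and one digit, or Rplp0, Rplp1, Rplp2 or Rpsa. This rule found 86 rows of 28987. Of these, 45 were assigned by symbol to the large ribosomal subunit and 34 to the small one. The other 7 (Rpl3l, Rpl7l1, Rpl10l, Rpl22l1, Rpl39l, Rps27l and Rps4y2) are paralogs, diverged copies of a ribosomal protein gene, and were kept apart. The small subunit rows include Rps12l1, Rps3a2 and Rps3a3, which the annotation used below calls pseudogenes. Fau and Rpl36al also encode ribosomal proteins, but their symbols fall outside the rule.

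The Ecad- group holds the cells without E-cadherin staining and the Ecad+ group those with it. Both come from a single male line of the KPC strain that was grown out of a liver metastasis, cultured in DMEM with fetal bovine serum and used at passages 4 to 6. Because the labels name neither separate cultures nor animals, a group counts as 1 sample here and no test was made. The title of the series names endoplasmic reticulum stress and immune resistance of latent metastases. The values are TPM (each transcript's part of 1000000 transcripts), which sum to about the same total in every cell and are scaled by transcript length, so they are shares of a cell's RNA and not amounts.

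A ribosome is built from a large and a small subunit, each a folded ribosomal RNA held by many small basic proteins. The small subunit reads the messenger RNA, and the large subunit joins the amino acids. Nearly all of the proteins are needed in equal numbers. In mammals their mRNAs are among the most abundant in growing cells and begin with a run of C and T letters, the 5′ terminal oligopyrimidine tract, through which mTOR signalling sets their translation. Because they are short, abundant and long expressed in the germ line, ribosomal protein mRNAs have been copied back into mammalian genomes many times as processed pseudogenes.

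The table holds 98 Ecad- and 104 Ecad+ libraries in 3 library sets, named by a suffix whose meaning is not stated. Libraries correlated above 0.97 across all genes (5 pairs) were averaged, leaving 97 cells in the Ecad- and 100 in the Ecad+ group. The libraries of a pair lie in different sets. Values within a set use every library, so an averaged cell enters both of its sets. The median share of TPM in mitochondrially encoded genes was 8.78% for Ecad- cells and 30.0% for Ecad+ cells. Cells with under 1% there, named low-share cells below, numbered 40 of 97 in the Ecad- group and 1 of 100 in the Ecad+ group. These were uneven over the sets: 6 of 33 Ecad- libraries in set 1, 12 of 32 in set 2 and 22 of 33 in set 3. Of the epithelial markers, 5 of 5 lay above the expression floor defined below. Cdh1 averaged 16.1 TPM in Ecad- cells and 37.9 TPM in Ecad+ cells, and Krt8 averaged 472.1 TPM in Ecad- cells and 992 TPM in Ecad+ cells. The fibroblast, endothelial and hepatocyte markers (0 of 3, 0 of 2 and 0 of 2 above the floor) were near 0. Their summed levels reached at most 27.4, 4.12 and 27.7 TPM in an Ecad- cell and 0.521, 0 and 9.01 TPM in an Ecad+ cell. Of the immune markers 1 of 3, Cd68, lay above the floor, and the list's sum ran up to 370.1 TPM in Ecad- cells and 125.8 TPM in Ecad+ cells. Cd68 averaged 30.0 TPM in Ecad- cells and 6.35 TPM in Ecad+ cells, and its part in the results was not tested. Ptprc, which defines blood cells, was listed at 0 in every cell.

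Pseudogene rows have to be read together with the members, because reads from a ribosomal protein mRNA can be assigned to a copy with almost the same sequence. Member mRNAs were compared with transcripts of genes that GENCODE M21 (build mm10) annotates as pseudogenes or whose symbol is a member's followed by -ps, and a row was linked to a member at 90% identity over 80% of the shorter of the coding sequence and the pseudogene. This linked 612 rows by sequence, and 28 more carried such a symbol alone. M21 annotates 5 of these rows as protein-coding, among them Rpl10-ps3, with 1868 TPM in Ecad- cells and 1464 TPM in Ecad+ cells, and they are counted as pseudogene rows by their symbol. The 640 rows belong to 76 members. Summed over rows, pseudogenes averaged 87311 TPM in Ecad- cells and 60229 TPM in Ecad+ cells, while the members themselves averaged 64020 TPM in Ecad- cells and 46856 TPM in Ecad+ cells. Pseudogene rows thus held 57.1% of the joint total over all cells. Most of them were empty, with 510 under 1 TPM and 42 at 50 TPM or more.

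A single row dominated. Gm9385, a processed pseudogene of Rpl24 on chromosome 9, averaged 39250 TPM in Ecad- cells and 25731 TPM in Ecad+ cells. It was the highest row of the whole table outside the mitochondrial genes, and it ran between 139.4 and 110306 TPM over single cells. The next were Gm10443 for Rps28, with 12691 TPM in Ecad- cells and 9322 TPM in Ecad+ cells, and Gm20430 for Rpl12, with 6676 TPM in Ecad- cells and 4142 TPM in Ecad+ cells. Rpl38-ps2 averaged 5614 TPM in Ecad- cells and 3424 TPM in Ecad+ cells. The transcripts of the last 3 are only 210, 207 and 213 bases long, and TPM divides by length. The row called Rpl24 carries an identifier that M21 gives to its neighbour Zbtb11, so its values rest on the symbol and description in the table, and its sequence and position here are those of Rpl24 in M21.

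The sequences below show how close these copies are. Each is 90 bases of an M21 transcript, 5′ to 3′, of build mm10, with gene positions in parentheses, and capitals mark the bases at which the lines of a pair differ. Rpl24 (chr16:55966275-55971435, plus strand) and Gm9385 (chr9:116040593-116041064, minus strand) differ at 1 of the 471 coding bases they share, and coding bases 224 to 313 are shown.
Rpl24: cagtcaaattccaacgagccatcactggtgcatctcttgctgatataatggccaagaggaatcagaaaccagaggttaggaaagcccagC
Gm9385: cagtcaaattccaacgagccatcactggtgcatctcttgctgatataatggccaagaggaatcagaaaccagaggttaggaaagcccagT
Rpl12 (chr2:32961559-32965345, plus strand) and Gm20430 (chr14:57698013-57698219, plus strand) differ at 2 of 207 shared coding bases, and coding bases 292 to 381 are shown.
Rpl12: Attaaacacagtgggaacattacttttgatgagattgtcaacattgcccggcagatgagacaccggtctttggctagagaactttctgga
Gm20430: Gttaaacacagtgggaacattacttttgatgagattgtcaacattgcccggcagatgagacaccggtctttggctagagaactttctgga
Rps28 (chr17:33819027-33824562, minus strand) and Gm10443 (chr6:86334031-86334240, plus strand) are identical over all 210 coding bases, of which the first 90 are shown once for both.
Rps28 and Gm10443: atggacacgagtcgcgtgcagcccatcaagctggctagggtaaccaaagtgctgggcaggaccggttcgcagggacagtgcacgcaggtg

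Identity of the coding sequence did not settle how much of a gene's TPM lay in pseudogene rows. In the Rps28 family 93.8% did, but in the Rps29 family, which also has a pseudogene row at 100% identity, only 0.0581% did. Of the 79 members above the expression floor, 17 have a linked pseudogene row with 100% identity over the aligned part. Their median share in pseudogene rows was 81.4%, over a range of 0.0581% to 99.0%, and 13 of the 17 lay above 50%. For the other 62 members the median share was 0.365%, and 8 lay above 50%. In all, 21 of 79 members had most of their joint TPM in pseudogene rows, and 37 had under 1% there. The largest shares were 99.0% for Rpl12, 97.3% for Rpl24, 95.7% for Rpl31, 93.8% for Rps28 and 93.5% for Rpl5. For these 5 genes the own row is a small part of what the family holds. Among the most abundant members the share was small, at 0.251% for Rps18, 1.19% for Rps2 and 0.0467% for Rps14.

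**Figure D1:**
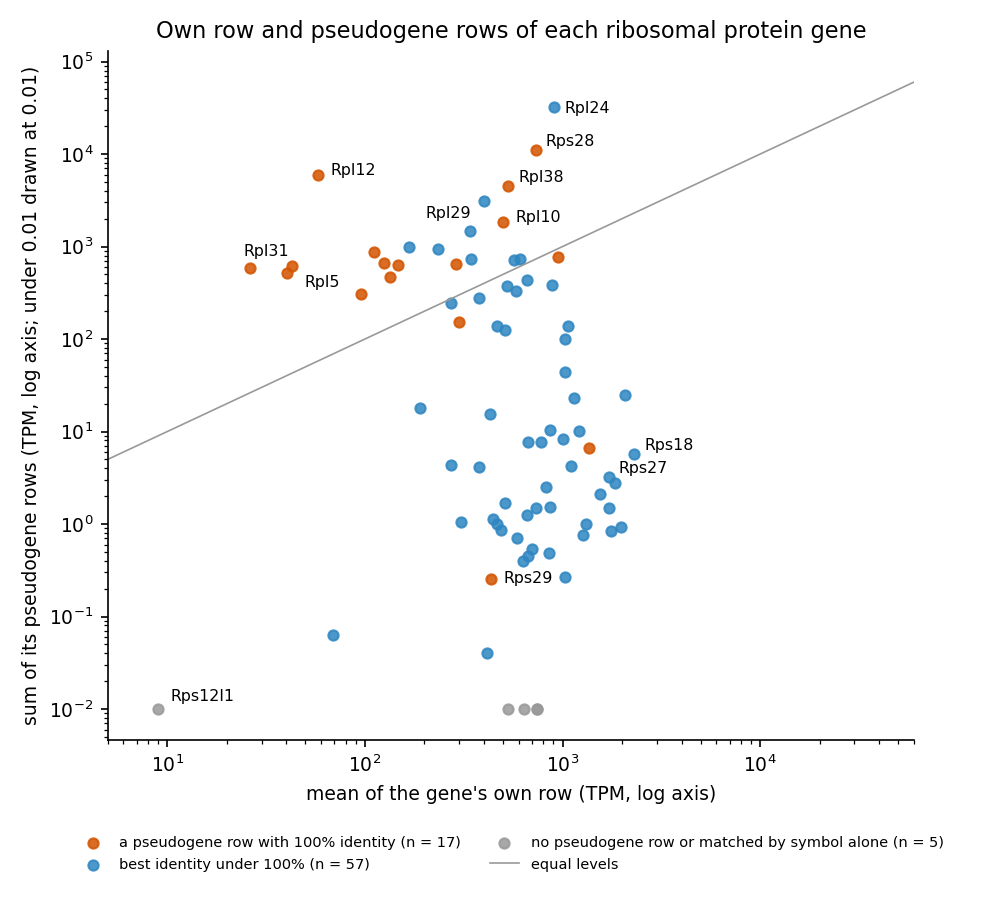
Mean level of each ribosomal protein gene's own row (TPM over 197 cells, log axis) against the sum of its pseudogene rows (TPM, log axis), 1 point per gene above the floor, coloured by the best identity of a pseudogene row. The 21 points above the line have more TPM in pseudogene rows than in their own row, with Rpl24 at 32390 TPM in such rows and 903.5 TPM of its own.

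To enter the comparison of the groups a row had to average 5 TPM or more and to be detected in 10% of the cells or more, a floor that 7227 of all rows passed. All 45 large subunit rows, 31 of 34 small subunit rows and 3 of 7 paralogs lay above this floor. Rps12, Rps3a2, Rps3a3, Rpl10l, Rpl39l, Rpl3l and Rps4y2 did not, and no member was at 0 in every cell. Rps12 had a value above 0 in 27 of 97 Ecad- cells and 33 of 100 Ecad+ cells, with means of 3.83 TPM in Ecad- cells and 2.21 TPM in Ecad+ cells. Its linked row Rps12-ps3 is identical to it over 494 bases and averaged 203.9 TPM in Ecad- cells and 136.0 TPM in Ecad+ cells. M21 annotates Rps3a2, Rps3a3, Rps4y2 and Rps12l1 as pseudogenes although their symbols meet the rule, and of these Rps12l1 passed the floor, at 10.5 TPM in Ecad- cells and 7.50 TPM in Ecad+ cells.

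The 79 members above the floor ranged from 8.98 TPM (Rps12l1) to 2290 TPM (Rps18), with a median of 586.5 TPM. The median was 578.3 TPM for large and 629.2 TPM for small subunit genes. Outside the mitochondrial genes, 18 of the 100 highest rows were members. Rps18 led with 2690 ± 1851 TPM in Ecad- cells (SD over 97 cells) and 1902 ± 702 TPM in Ecad+ cells (SD over 100 cells). Rps2, which lines the entry of the mRNA channel, followed with 2366 ± 1204 TPM in Ecad- cells and 1769 ± 659 TPM in Ecad+ cells, and Rps14 with 2527 ± 1632 TPM in Ecad- cells and 1461 ± 598 TPM in Ecad+ cells. At the low end, Rpl31 averaged 27.2 ± 17.8 TPM in Ecad- cells and 25.4 ± 10.8 TPM in Ecad+ cells, and Rpl27a 43.0 ± 33.5 TPM in Ecad- cells and 38.0 ± 19.7 TPM in Ecad+ cells. Both are genes with most of their joint TPM in pseudogene rows. SDs here describe the spread over cells of 1 sample.

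Ribosomal protein mRNA took a larger share of TPM in Ecad- cells. The 86 rows held a median of 6.08% of TPM per Ecad- cell (quartiles 4.89% and 7.61%, range 2.00% to 18.8%) and 5.16% per Ecad+ cell (quartiles 3.76% and 5.94%, range 1.84% to 7.64%). The ranges overlapped over their whole lower part, and the cells above 7.64% were all Ecad-. Within library sets the medians were 5.94%, 5.27% and 7.71% in Ecad- libraries of sets 1, 2 and 3 and 5.00%, 3.72% and 5.75% in Ecad+ libraries. The mitochondrial share differed between the groups as well, and its part in this result was not tested. Of TPM outside mitochondrial genes the members held 7.77% in Ecad- cells and 7.05% in Ecad+ cells. On that scale the set medians were 7.97%, 6.57% and 8.43% in Ecad- libraries and 6.82%, 6.54% and 7.83% in Ecad+ libraries, so set 2 showed almost no gap. Without low-share cells the medians outside mitochondrial genes were 8.16% in 57 Ecad- cells and 7.07% in 99 Ecad+ cells, and the 40 low-share Ecad- cells had 7.04%. With pseudogene rows added, the median share of TPM was 13.9% in Ecad- cells and 11.5% in Ecad+ cells.

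**Figure D2:**
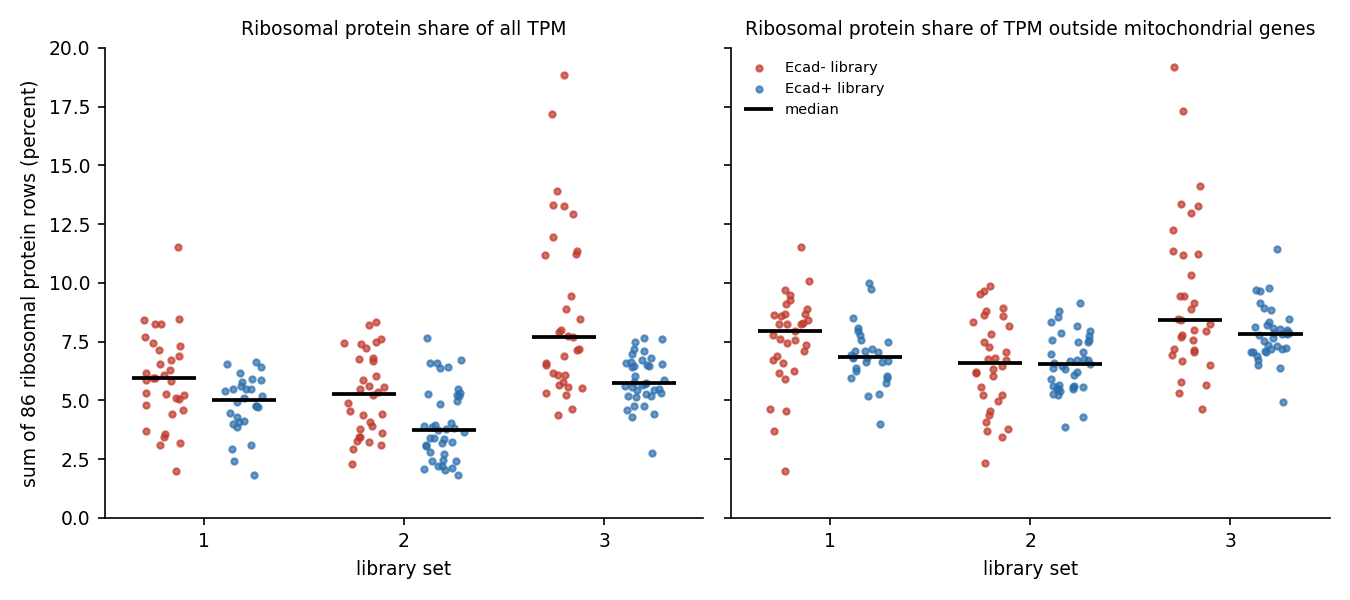
Share of TPM held by the 86 ribosomal protein rows (percent, y axis) for each Ecad- and Ecad+ library in library sets 1, 2 and 3, over all TPM and over TPM outside mitochondrial genes, with the median as a line. Medians over all TPM are higher in Ecad- libraries in each set, while outside mitochondrial genes set 2 has 6.57% in Ecad- and 6.54% in Ecad+ libraries.

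Gene by gene, the difference was broad and small. It was measured as a log2 ratio, the log2 of the mean of Ecad- cells over the mean of Ecad+ cells with 1 TPM added to each. The ratio was above 0 for 75 of the 79 members, against 68.8% of all genes above the floor. The median was 0.42 over members (quartiles 0.18 and 0.52), 0.46 over large subunit genes and 0.39 over small subunit genes, beside 0.31 over all genes. A ratio above the all-gene median was found for 51 of 79 members, 32 of 45 large and 17 of 31 small subunit genes, against 50% by construction. Only Rpl12 and Rps27 were higher in Ecad- cells by at least 2-fold, which 14.2% of all genes were, and no member was lower by as much, which 4.14% of all genes were. At 2 of 79, the share of members past 2-fold lay under that background.

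The ratios of the members also lay close together. Their interquartile range was 0.346, against 0.768 for 895 other genes of like level (122 to 1400 TPM), whose median was 0.37. Within library sets 1, 2 and 3 the member medians were 0.26, 0.31 and 0.54, and those of all genes were 0.16, 0.44 and 0.26, so the members lay above the table in sets 1 and 3 and below it in set 2. The ratio was above 0 in each of the 3 sets for 61 members, against 44.9% of all genes. Rpl3 was the one member below 0 in each set, against 14.8% of all genes. Set 3, which has the most low-share Ecad- cells, gave the highest ratio for 35 of 45 large and 16 of 31 small subunit genes, against 33.3% of all genes. Without low-share cells the median was 0.29 for members and 0.14 for all genes. With mitochondrial genes taken out and the rest scaled anew, the median was 0.12 for members and near 0 for all genes, and 51 of 79 members were above 0, against 49.9% of all genes.

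**Figure D3:**
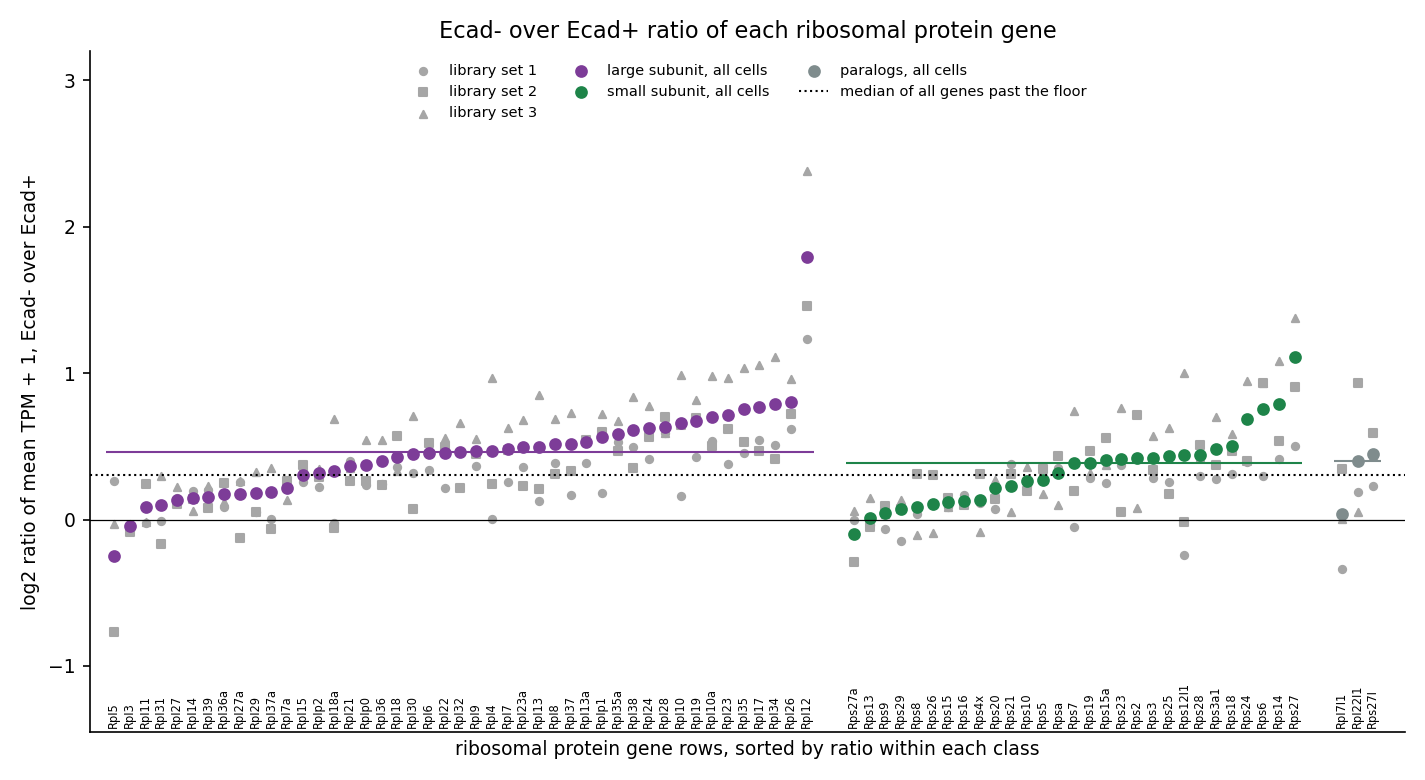
The log2 ratio of mean TPM in Ecad- over Ecad+ cells (y axis) for the ribosomal protein genes above the floor, 2 of which are not drawn, ordered within large subunit genes, small subunit genes and paralogs, with the values of library sets 1, 2 and 3 as grey marks and class medians as lines. Most genes lie between 0 and 0.8, Rpl12 (1.79) and Rps27 (1.11) stand highest, and Rpl5, Rpl3 and Rps27a lie below 0.

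Among large subunit genes Rpl12 had by far the highest ratio. Its protein sits at the base of the stalk, the arm of the large subunit that recruits elongation factors. Rpl12 ran from 0 through a median of 53.2 to 406.2 TPM in Ecad- cells and from 0.435 through 22.4 to 116.2 TPM in Ecad+ cells. The ranges overlapped, but the upper tail was Ecad-. The means were 91.0 ± 87.5 TPM in Ecad- cells and 25.6 ± 19.4 TPM in Ecad+ cells. This is a log2 ratio of 1.79, with 1.23, 1.46 and 2.38 in sets 1, 2 and 3 and 1.23 without low-share cells. This row holds under 1% of the joint TPM of its family. Gm20430, shown above, holds most of the rest and had a ratio of 0.69, as did the family as a whole.

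The next highest ratios were those of Rpl26, Rpl34, Rpl17 and Rpl35, and the proteins of Rpl26, Rpl17 and Rpl35 surround the exit of the tunnel through which the growing chain leaves. Rpl26 ran from 59.7 through 1288 to 5329 TPM in Ecad- cells and from 260.7 through 808.2 to 1692 TPM in Ecad+ cells. The ranges overlapped, and the Ecad- values reached both lower and higher. Its means were 1465 ± 863 TPM in Ecad- cells and 841.2 ± 324 TPM in Ecad+ cells (a ratio of 0.80 on the log2 scale, and 0.42 without low-share cells). Rpl34 averaged 1404 ± 937 TPM in Ecad- cells and 813.5 ± 296 TPM in Ecad+ cells (0.79), Rpl17 658.6 ± 479 TPM in Ecad- cells and 386.6 ± 159 TPM in Ecad+ cells (0.77), and Rpl35 843.3 ± 490.1 TPM in Ecad- cells and 499.6 ± 209 TPM in Ecad+ cells (0.75). All 4 were above 0 in each library set, at 0.41 to 0.72 in sets 1 and 2 and 0.96 to 1.11 in set 3. So were 44.9% of all genes, and these 4 were picked by their ratios over the same cells.

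The lowest large subunit ratios belonged to Rpl5, Rpl3, Rpl11, Rpl31 and Rpl27. Rpl5 and Rpl11 join the smallest ribosomal RNA of the large subunit before assembly, and in mammals both can bind the p53 regulator Mdm2. Rpl5 ran from 0 through 25.2 to 450.4 TPM in Ecad- cells and from 1.07 through 37.3 to 190.0 TPM in Ecad+ cells. Its mean of 38.7 ± 51.5 TPM in Ecad- cells lay below the 46.2 ± 36.4 TPM of Ecad+ cells, within the spread over cells of either group. The log2 ratio was -0.25, with 0.26, -0.77 and -0.03 in sets 1, 2 and 3, so its sign was not the same in each set. With its pseudogene rows, which hold 93.5% of its joint TPM, the ratio was 0.03. Rpl11 averaged 279.6 ± 117 TPM in Ecad- cells and 263.3 ± 103 TPM in Ecad+ cells, giving a log2 ratio of 0.09.

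Rpl3, whose protein reaches toward the site of peptide bond formation, has almost no pseudogene share (0.326%). It ran from 0 through 419.6 to 1616 TPM in Ecad- cells and from 143.7 through 527.3 to 1037 TPM in Ecad+ cells. The median was thus lower in Ecad- cells while the highest cells were Ecad-. The means of 504.5 ± 319 TPM in Ecad- cells and 519.5 ± 202 TPM in Ecad+ cells gave a log2 ratio of -0.04, with -0.07, -0.09 and -0.03 in the sets. These differences of the means are a few percent. With means of logs the log2 ratio of Rpl3 was -0.31, close to the median of -0.28 over all genes. With mitochondrial genes taken out it was -0.33, where the median of all genes was near 0. Rpl31 (0.10) and Rpl27 (0.14, with 130.7 TPM in Ecad- cells and 118.9 TPM in Ecad+ cells) have 95.7% and 84.2% of their joint TPM in pseudogene rows.

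Rps27, which encodes a zinc finger protein of the small subunit, had the highest small subunit ratio. It ran from 274.5 through 1602 to 14352 TPM in Ecad- cells and from 202.7 through 1034 to 2941 TPM in Ecad+ cells. The groups overlapped below 2941 TPM, and every cell above it was Ecad-. The means were 2351 ± 2316 TPM in Ecad- cells and 1087 ± 638 TPM in Ecad+ cells, giving a log2 ratio of 1.11. The sets gave 0.50, 0.90 and 1.38, and without low-share cells it was 0.83, under 2-fold. Its pseudogene rows hold 0.188% of the joint TPM, so this ratio does not hang on them.

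Rps14, Rps6 and Rps24 were among the next. Loss of one copy of RPS14 is part of the human 5q- syndrome. Rps14 ran from 293.2 through 2139 to 9276 TPM in Ecad- cells and from 380.8 through 1461 to 3054 TPM in Ecad+ cells, so the Ecad- range held the whole Ecad+ range. Its log2 ratio was 0.79, and 0.55 without low-share cells. Rps6, whose protein is the substrate of the S6 kinases, averaged 366.5 ± 230.1 TPM in Ecad- cells and 216.8 ± 75.5 TPM in Ecad+ cells, giving a log2 ratio of 0.76 that was 0.33 without low-share cells. Rps24, mutated in human Diamond-Blackfan anaemia, averaged 964.0 ± 882 TPM in Ecad- cells and 599.0 ± 243 TPM in Ecad+ cells, with a log2 ratio of 0.69 (0.41 without low-share cells). All of these were above 0 in each set, as were 44.9% of all genes. They too were picked by their ratios over the same cells.

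The low end of the small subunit held Rps27a, Rps13, Rps9 and Rps29, among others. Rps27a, made as a fusion with ubiquitin, ran from 93.7 through 530.7 to 2127 TPM in Ecad- cells and from 74.7 through 533.4 to 1325 TPM in Ecad+ cells, with nearly equal medians. The means were 546.2 ± 312 TPM in Ecad- cells and 584.2 ± 267 TPM in Ecad+ cells (-0.10), but with its pseudogene rows the ratio was 0.27. One of these rows, Gm8430, differs from Rps27a at 1 of 471 coding bases. Rps13 (0.01), Rps9 (0.05) and Rps29 (0.07) differed between the groups by far less than the spread over cells.

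The stalk genes were higher in Ecad- cells, with a median log2 ratio of 0.37 beside 0.31 over all genes. Rplp0 averaged 1945 ± 1055 TPM in Ecad- cells and 1505 ± 592 TPM in Ecad+ cells (0.37), Rplp1 1238 ± 853 TPM in Ecad- cells and 837.0 ± 356 TPM in Ecad+ cells (0.56), and Rplp2 955.1 ± 795 TPM in Ecad- cells and 764.7 ± 346 TPM in Ecad+ cells (0.32). All 3 were above 0 in each set, as were 44.9% of all genes. With mitochondrial genes taken out the ratios were 0.07 for Rplp0, 0.24 for Rplp1 and 0.06 for Rplp2. Rpsa, also known as a laminin receptor, averaged 419.9 ± 229 TPM in Ecad- cells and 336.3 ± 141 TPM in Ecad+ cells (0.32). Of the ribosomal protein genes that the symbol rule leaves out, Rpl36al had 823.3 TPM in Ecad- cells and 598.5 TPM in Ecad+ cells (0.46) and Fau 513.6 TPM in Ecad- cells and 300.7 TPM in Ecad+ cells (0.77).

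Paralogs differed from their parents to varying degrees in both level and ratio. Rps27l, a p53 target, lies on chromosome 9 and shares 76.1% of coding bases with Rps27, far too few for the rows to be taken for each other. The first 90 coding bases of each are shown, with the 24 differing bases in capitals.
Rps27: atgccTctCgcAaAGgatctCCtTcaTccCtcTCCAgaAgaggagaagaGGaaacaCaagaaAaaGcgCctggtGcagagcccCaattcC
Rps27l: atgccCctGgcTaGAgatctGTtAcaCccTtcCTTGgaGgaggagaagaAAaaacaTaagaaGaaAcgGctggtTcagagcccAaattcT
Rps27l averaged 812.7 ± 492 TPM in Ecad- cells and 596.6 ± 271 TPM in Ecad+ cells, giving a log2 ratio of 0.45 beside 1.11 for Rps27. Rpl22l1 averaged 311.6 ± 312 TPM in Ecad- cells and 236.0 ± 154 TPM in Ecad+ cells (0.40), near Rpl22 with 353.8 ± 216 TPM in Ecad- cells and 257.6 ± 111 TPM in Ecad+ cells (0.46). Rpl7l1 averaged only 69.7 TPM in Ecad- cells and 67.9 TPM in Ecad+ cells (0.04), against 1536 TPM in Ecad- cells and 1098 TPM in Ecad+ cells for Rpl7 (0.48). The paralogs known from testis and striated muscle were almost silent. Rpl39l was above 0 in 9 of 97 Ecad- and 5 of 100 Ecad+ cells, Rpl10l in 2 of 97 and 5 of 100, Rpl3l in 2 of 97 and 1 of 100, and Rps4y2 in 4 of 97 and 3 of 100. Their parents averaged 609.0 TPM (Rpl39), 611.7 TPM (Rpl10) and 504.5 TPM (Rpl3) in Ecad- cells, against 548.5, 387.5 and 519.5 TPM in Ecad+ cells.

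Large and small subunit mRNA kept nearly the same proportion in both groups. The summed small subunit TPM over the summed large subunit TPM had a median of 0.843 in Ecad- cells (quartiles 0.716 and 0.922, range 0.415 to 1.21) and 0.851 in Ecad+ cells (quartiles 0.817 and 0.904, range 0.498 to 1.13). The medians differ by less than the spread in either group, and the Ecad- cells were more widely scattered. The median was 0.880, 0.813 and 0.823 in Ecad- libraries of sets 1, 2 and 3 and 0.874, 0.803 and 0.898 in Ecad+ libraries. Set 3 alone had a lower value in Ecad- libraries. Low-share Ecad- cells had a median of 0.703, while the other 57 Ecad- cells had 0.888 and the 99 Ecad+ cells that are not low-share had 0.849. Without low-share cells the ratio was therefore slightly higher in Ecad- cells.

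**Figure D4:**
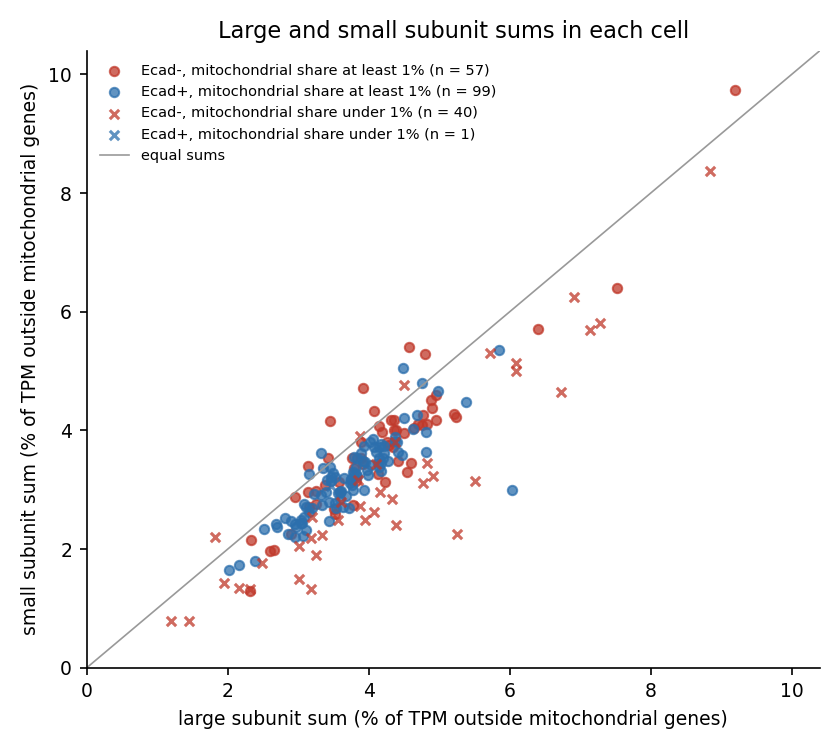
Small subunit share against large subunit share of TPM outside mitochondrial genes (percent, both axes) for each Ecad- and Ecad+ cell, with low-share cells as crosses. Most cells of both groups lie in a common band just under the line of equal sums. Most low-share Ecad- cells lie farther under that line, with a median small-over-large value of 0.703.

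Across single cells the subunits varied together. As a description of cells within 1 sample, the large and small subunit shares outside mitochondrial genes correlated with r = 0.895 over 97 Ecad- cells (rho = 0.821) and r = 0.851 over 100 Ecad+ cells (rho = 0.885). Both shares are divided by the cell's TPM outside mitochondrial genes. Between single genes the correlation of log2(TPM + 1) was weaker, with a median r of 0.26 in Ecad- and 0.29 in Ecad+ cells within the large subunit, 0.38 in Ecad- and 0.38 in Ecad+ cells within the small subunit, and 0.28 in Ecad- and 0.32 in Ecad+ cells between subunits. Pairs of other genes of like level had medians of 0.078 in Ecad- and 0.017 in Ecad+ cells. Genes differed in how far they followed the rest. In Ecad- cells Rps21 (median r of 0.47) and Rplp2 (0.44) followed most and Rpl15 (0.03), Rps6 (0.08) and Rpl5 (0.08) least. In Ecad+ cells Rpl36 (0.49) and Rps15 (0.48) followed most and Rpl5 (0.05) and Rpl39 (0.08) least. Of the genes named as following least, Rpl5 has 93.5% of its joint TPM in pseudogene rows, Rpl15 88.7%, Rps6 68.9% and Rpl39 36.1%. Whether this share plays a part was not tested.

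Members were more variable among Ecad- cells. The SD of log2(TPM + 1) over cells was larger in Ecad- cells for 79 of 79 members, but also for 96.4% of all genes. Its median over members was 1.09 in Ecad- cells and 0.64 in Ecad+ cells, below the 2.03 in Ecad- and 1.32 in Ecad+ cells over all genes. Members also have a higher median level (586.5 TPM) than all genes above the floor (22.1 TPM). Against the 895 other genes of like level the gap was smaller, with median SDs over all cells of 0.91 for members and 1.36 for those genes. The steadiest members over all cells were Rpl9 (SD 0.62), Rps3a1 (0.65) and Rpl7 (0.67). The least steady were Rpl12 (1.66), Rpl36a (1.64) and Rps12l1 (1.62). Zeros were also more common in Ecad- cells, where 58 of 79 members were above 0 in every cell, against 78 of 79 in Ecad+ cells. Over all genes above the floor these counts were 448 of 7227 in Ecad- cells and 2264 of 7227 in Ecad+ cells, so the gap is not one of the members alone. Median genes above 0 per cell were 8694 in Ecad- and 10338 in Ecad+ cells, and whether this plays a part was not tested.

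Adding pseudogene rows to their parents evened out the ratios without moving their middle. The median was 0.43 with these rows and 0.42 without, and the range narrowed to between -0.04 and 1.11. Only 9 members shifted by more than 0.2. Rpl12 came down from the top of the list (1.79 for the own row, 0.69 with the added rows), and Rpl10a (0.70 alone, 0.43 with) and Rpl10 (0.66 alone, 0.42 with) also came down. Rpl27a (0.17 alone, 0.78 with), Rps27a (-0.10 alone, 0.27 with), Rpl15 (0.30 alone, 0.60 with), Rpl31 (0.10 alone, 0.38 with), Rpl5 (-0.25 alone, 0.03 with) and Rpl17 (0.77 alone, 1.00 with) went up. Part of the Rpl27a value comes from Gm8213, with a median of 0 TPM in both groups and up to 4558 TPM in a single cell, and means of 66.5 TPM in Ecad- cells and 0.310 TPM in Ecad+ cells. Rpl17 has Gm12469 beside it, a row of 207 bases with 417.4 TPM in Ecad- cells and 143.9 TPM in Ecad+ cells. With the rows added, Rps27 and Rpl17 were higher by at least 2-fold, and 2 members, Rpl3 among them, were below 0. Rps27 and Rpl3 thus stayed at the ends of the list, and Rpl12 and Rps27a did not.

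**Figure D5:**
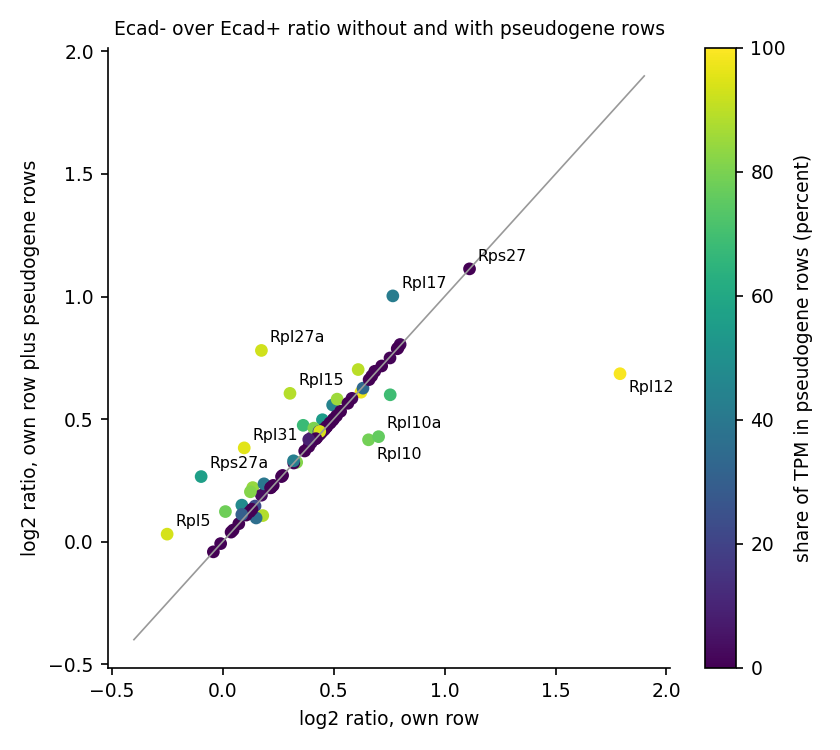
The log2 ratio of Ecad- over Ecad+ means with pseudogene rows added to their parent (y axis) against the ratio of the gene's own row (x axis), 1 point for each of 79 ribosomal protein genes, coloured by the share of TPM in pseudogene rows, with the line of equality. Most points lie on the line, Rpl12 falls far below it (1.79 alone, 0.69 with pseudogene rows), and Rpl27a lies farthest above it.

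Members share gene features that the symbol rule did not use. They lie on 19 chromosomes, and 30 of 86 (34.9%) hold at least 1 small nucleolar RNA gene within their bounds, 58 in all, against 1.21% of 20187 protein-coding rows. The median ratio was 0.42 for the 29 members above the floor with such a gene and 0.42 for the 50 without. Start site windows from RefSeq (build GRCm38.p6) matched 62 members by symbol. In the 25 bases before to 50 bases after the annotated start, on the gene's strand, 48 of these (77.4%) hold a run of 8 or more C or T letters, against 30.4% of 27025 genes. The longest run had a median of 10 letters in members and 6 in all genes. The windows of 5 members whose levels are given above are shown, 30 bases each, with the run in capitals: Rps27 (chr3:90213631-90213660, minus strand), Rps6 (chr4:86857349-86857378, minus strand), Rpl26 (chr11:68901579-68901608, plus strand), Rps18 (chr17:33955647-33955676, minus strand) and Rpl5 (chr5:107900498-107900527, plus strand).
Rps27: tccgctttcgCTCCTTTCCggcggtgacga
Rps6: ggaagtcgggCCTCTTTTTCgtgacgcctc
Rpl26: gcgtgtagTTCTCTTTCCTTTTgcggccat
Rps18: tcacttccgCTCTCTCTTCCacaggaggcc
Rpl5: cctacagccaCTCTTTCTCacgtcgcttgc
Counted from the annotated start, the runs begin at -2 (Rps27), -1 (Rps6), 21 (Rpl26), -2 (Rps18) and -20 (Rpl5). Whether the ratios differ between members with and without such a run was not tested. A match says only that these letters are present, and whether the mRNA begins with them was not tested.

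Other genes of protein synthesis were read from fixed lists. The 75 mitochondrial ribosomal protein genes above the floor (of 76), which serve translation inside mitochondria, had a median log2 ratio of 0.37, with 46 above 0 and 2 below 0 in each set (44.9% and 14.8% of all genes) and 5 at least 2-fold higher (14.2% of all genes). Their extremes were Mrps25 (-0.43) and Mrpl42 (-0.38) at the low end and Mrpl45 (1.08, but 0.07 without low-share cells) and Mrps23 (1.09, but 0.33 without them) at the high end. The 24 translation factors and other mRNAs with a terminal oligopyrimidine tract had a median of 0.32, with 18 above 0 and 1 below 0 in each set and none past 2-fold, beside the same shares of all genes and 4.14% that were 2-fold lower. They ran from Hnrnpa1, with 143.1 TPM in Ecad- cells and 206.5 TPM in Ecad+ cells (-0.53), to Eif3a, with 180.6 TPM in Ecad- cells and 102.0 TPM in Ecad+ cells (0.82, but 0.18 without low-share cells). The list also holds Fau. The 53 nucleolar and ribosome assembly genes above the floor (of 59) had a lower median of 0.22, with 20 above 0 and 5 below 0 in each set and 2 at least 2-fold higher, so their share above 0 in each set (37.7%) was below the 44.9% of all genes.

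The assembly genes spread more widely than the ribosomal proteins. Dkc1, the pseudouridine synthase of small nucleolar particles, averaged 184.9 ± 177 TPM in Ecad- cells and 291.4 ± 212 TPM in Ecad+ cells (-0.65), and Bop1, needed to process large subunit RNA, 12.9 ± 15.4 TPM in Ecad- cells and 20.1 ± 14.2 TPM in Ecad+ cells (-0.61). In contrast Gnl3, nucleostemin, averaged 151.8 ± 237 TPM in Ecad- cells and 46.5 ± 35.9 TPM in Ecad+ cells (1.69), and Sbds, which helps release a factor that keeps new large subunits apart from small ones, 149.5 ± 133 TPM in Ecad- cells and 59.5 ± 34.6 TPM in Ecad+ cells (1.31). In each library set Gnl3 and Sbds were above 0, as were 44.9% of all genes. Dkc1 and Bop1 were below 0 in each, as were 14.8% of all genes. These 4 were picked by their ratios over the same cells, so the shared signs are no separate evidence. Without low-share cells only Gnl3 (1.07) was still past 2-fold and Sbds (0.72) was not. For scale, Ddit3, a stress-induced transcription factor, averaged 561.6 ± 834 TPM in Ecad- cells and 31.1 ± 112 TPM in Ecad+ cells (4.13), far beyond any ribosomal protein gene. Atf4, its upstream activator, had a log2 ratio of 2.22 and Cdkn1a, a cell cycle inhibitor, one of 1.89, with 1.16 and 0.69 without low-share cells.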

How the data were processed

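Single cells were captured on a Fluidigm C1, and their cDNA was amplified with SMARTer and made into libraries with Nextera XT, per the labels' protocols; no molecular identifiers or strand marks are named. Per the submitters' processing notes FastQC 0.11.5, kallisto and the build mm10 were used. Neither the transcript index nor the way transcripts were joined to genes is stated in the labels. The authors deposited log2(TPM + 1) values, a unit checked against the column sums (933711 to 987134 TPM per library). The authors also deposited p-values that take cells as replicates, which were not used. Depth is unknown, so no interval is given.

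Values were turned back to TPM. The 5 pairs of libraries with a correlation of 0.984 to 0.994 (next 0.939) were averaged as 1 cell each. Genes needed a mean of 5 TPM and a value above 0 in 10% of cells, and a called difference was 2-fold. Since each group is 1 sample, no p-value was computed. Named genes are, per subunit, the 5 highest and 5 lowest ratios, then the 3 highest and lowest means, the 3 largest and smallest SDs over cells, the 5 largest pseudogene shares and members below the floor, besides the paralogs with their parents, the stalk genes, Rpsa, and 2 genes at either end of each other list. Genes named for their correlations or for a shift with pseudogene rows were chosen after their values were seen. Members and lists were chosen with earlier results of these data known. Pseudogenes were matched with blastn 2.17.0 to GENCODE M21 transcripts. Rpl41 was not analysed here, a few named genes are not reported here, and the Rpl24 row carries an identifier that M21 names Zbtb11. Python 3.11.15, numpy 2.4.6, pandas 2.3.3, scipy 1.17.1, Biopython 1.88 and matplotlib 3.10.9 were used, and the ratio script was tested on simulated data.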

Additional observations from a re-analysis of the deposited data

How the results depend on the processing

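The difference of median member shares (Ecad- minus Ecad+, 0.919 percentage points) was 1.47 without set 3, 1.49 with sets weighted equally and 2.40 with pseudogene rows added. The median log2 ratio of members (0.42) was 0.24 with means of logs, 0.12 without mitochondrial genes, 0.11 centred on all genes and 0.16 without mitochondrial genes and without low-share cells. With means of logs the median of all genes fell further, from 0.31 to -0.28, so the members lay farther above all genes under that setting. For large subunit genes (0.46) the last 3 gave 0.16, 0.15 and 0.16. For small subunit genes (0.39) means of logs gave 0.15, removal of mitochondrial genes 0.0588, centring 0.0812 and both removals 0.16; 10% trimming gave 0.30, a pseudocount of 10 TPM 0.31, a floor of 50 TPM 0.35, no set 2 0.27, no set 3 0.27, equal sets 0.34, no low-share cells 0.30, no cells with fewest genes 0.27 and no pseudogene-annotated rows 0.35. Rpl12 was the 1 member past 2-fold under trimming, means of logs, centring, without mitochondrial genes, without set 3, without low-share cells, without the cells with fewest genes and with both removals. No member was 2-fold lower under any of the 18 alternatives. The shares of all genes past 2-fold (14.2% higher and 4.14% lower) were taken in the main setting only. Small over large (difference -0.0075) turned positive without set 3 (0.0328), without low-share cells (0.0387), with pseudogene rows added (0.00668) and with both removals (0.0387). The cause was not tested. The settings that drop member rows annotated as pseudogenes, or both mitochondrial genes and low-share cells, were chosen after seeing the data. No paired analysis was possible because no test was made: each group is 1 sample, and the numbers in the titles only name cells. The library sets occur in both groups, and the ratios within them are given in the report. Unknown depth limits the low members most.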
